A study of Homo sapiens with 4 samples.

Results

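The MYC, MAX and MXD network is a set of 10 genes, MYC, MYCN, MYCL, MAX, MXD1, MXD3, MXD4, MXI1, MNT and MGA, and it was followed through all probe sets whose annotation names one of them. They are 10 of the 21357 genes named on the array, with 32 of its 54675 probe sets. They were measured in SKOV3, an established human ovarian carcinoma cell line, on 2 arrays from cells given rhSTIP1 and 2 from cells labelled control. The sample titles do not say what the control cells received. The name rhSTIP1 was taken to mean recombinant human STIP1, a cochaperone of HSP70 and HSP90. The sources used here give neither dose nor time of exposure, and both groups are 1 cell line. Nothing in the labels tells whether a group's arrays are separate cultures, so every p-value reflects only the spread among these 4 arrays, which may be technical.

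MYC proteins bind DNA as pairs with MAX, at a short sequence called the E-box, and raise transcription of genes for ribosome production and metabolism. The MXD proteins, MXI1 and MNT pair with the same MAX, bind the same sequence and recruit the SIN3 corepressor, so the balance between MYC and these partners sets the output at shared sites. MGA also pairs with MAX and is a scaffold of a Polycomb complex, PRC1.6. MYC is an early response gene of growth factor signalling, and in mouse Mxd1 rises as cells leave the cycle and differentiate, whereas Mxd3 is found in cells in S phase.

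Promoter sequences of 3 members are shown: that of MXD3, which had the largest group difference among the members tested as genes, and those of MNT and MXD4, which of the 9 members with a listed promoter are the ones that hold an E-box in this window. Each runs 5′ to 3′ on the gene's strand, 250 bases before to 50 bases after the start, from RefSeq on GRCh38.p14, with the E-box (CACGTG, which reads the same on both strands) in capitals. MXD3 lies at chr5:177312703-177313002 on the minus strand, MNT at chr17:2401011-2401310 on the minus strand and MXD4 at chr4:2262060-2262359 on the minus strand.
MXD3: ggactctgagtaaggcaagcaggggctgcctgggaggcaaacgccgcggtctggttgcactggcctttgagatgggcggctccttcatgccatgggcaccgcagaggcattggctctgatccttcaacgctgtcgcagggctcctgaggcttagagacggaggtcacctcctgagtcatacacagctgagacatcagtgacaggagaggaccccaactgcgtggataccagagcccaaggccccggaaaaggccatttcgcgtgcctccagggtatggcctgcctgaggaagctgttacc
MNT: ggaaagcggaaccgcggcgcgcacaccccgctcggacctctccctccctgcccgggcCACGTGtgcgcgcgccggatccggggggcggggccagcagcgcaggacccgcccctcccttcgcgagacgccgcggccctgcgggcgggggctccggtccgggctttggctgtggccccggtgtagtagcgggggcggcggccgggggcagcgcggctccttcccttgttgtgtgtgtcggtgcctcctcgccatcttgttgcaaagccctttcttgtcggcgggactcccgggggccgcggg
MXD4: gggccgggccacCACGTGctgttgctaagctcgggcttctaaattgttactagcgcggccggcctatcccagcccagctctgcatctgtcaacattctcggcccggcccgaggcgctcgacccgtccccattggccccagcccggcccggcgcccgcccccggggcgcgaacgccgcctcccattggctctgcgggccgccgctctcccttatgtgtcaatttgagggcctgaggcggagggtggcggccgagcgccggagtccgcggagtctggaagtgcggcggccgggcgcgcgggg

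The E-box began at position −193 from the start in MNT and at position −238 in MXD4. It was present in 2 of the 14 promoters listed for 9 members, in a table where 7.3% of 35116 promoters held it. The GC-rich motif GGCGCC, to which SMAD1 and SMAD5 can bind, was in 5 of the 14 promoters, those of MGA, MXD4, MXI1 and MYCN, against 19.2% of all promoters. The E2F motifs TTTCCCGC, TTTGGCGC, TTTCGCGC and TTTGCCGC, searched on both strands, were in 2, those of MGA and MYCN, against 3.3% of all. TTTGGCGC and GGCGCC share letters, so their matches can overlap. These matches describe the letters only, and no binding was measured.

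Values are deposited MAS5 signals, which are linear, and differences are of log2(signal + 16). A probe set or gene was tested where its mean signal over the 4 arrays reached 69.4, the median over all probe sets other than controls. By that limit 17 of the 32 probe sets were tested and 15 were too dim. As genes, each taken as its probe set of highest mean signal, 8 members were tested: MYC, MYCL, MAX, MXD1, MXD3, MXI1, MNT and MGA. MYCN was too dim, and the 3 probe sets of MXD4 are annotated also to MIR4800, a microRNA gene that lies within MXD4, so they were followed as probe sets only. Levels of different probe sets cannot be set against each other on such arrays.

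The arrays as a whole were similar in brightness, with median signals of 69.0 and 69.0 on the rhSTIP1 arrays and 66.0 and 79.2 on the control arrays. The 3′ to 5′ ratio of ACTB, a sign of RNA quality, was 2.62 and 8.795 on the rhSTIP1 arrays and 2.74 and 2.45 on the control arrays. The same ratio of GAPDH was 0.992 and 1.315 on the rhSTIP1 arrays and 0.987 and 1.165 on the control arrays, so the array with the high ACTB ratio also had the highest GAPDH ratio, by far less. Of 10 epithelial and ovarian markers, 9 reached the limit and MUC16 did not. KRT8, EPCAM and PAX8 were bright on all 4 arrays, while MSLN gave 185 to 323 and CLDN4 174 to 298. The summed signal of the 10 was 51478 and 53913 on the rhSTIP1 arrays and 45745 and 48182 on the control arrays. Of 4 leukocyte markers with a probe set, 0 reached the limit, against 4 of 7 fibroblast and 1 of 5 endothelial markers. Fibroblast and endothelial markers gave sums of 521 to 670 and 227 to 361 on the rhSTIP1 arrays, against 454 to 661 and 232 to 234 on the control arrays. In cultures measured in bulk, a change in the share of cells in a state and a change per cell cannot be told apart.

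None of the 8 member genes passed the test over all genes. By limma with Benjamini-Hochberg adjustment over 12296 genes, 0 of 8 had an adjusted p under 0.05 and all 8 had an adjusted p of 0.999, in a comparison where 0 of 12296 genes passed, or 0%. At an unadjusted p under 0.05 there were 0 of 8 members, against 3.68% of all genes. The log2 fold change was above 0 for 4 members (MYC, MAX, MXI1 and MNT) and below 0 for 4 (MYCL, MXD1, MXD3 and MGA), against 53.2% of all genes above 0 and 46.8% below. Of these, MYCL reached the limit for testing only through control array 2, where it was highest. The groups did not overlap for 2 of the 8, MYC and MNT, both higher, against 28.9% of all genes in either direction and 14.0% higher. Only 1 of the 8, MYC, was also at least 1.5-fold apart, against 5.69% of all genes in either direction and 1.90% higher. These shares are close to what the whole array gave for so few genes. Permuting 4 arrays exactly gives a two-sided p of 0.333 at the least, so no single-gene permutation test can reach 0.05 here.

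**Figure D1:**
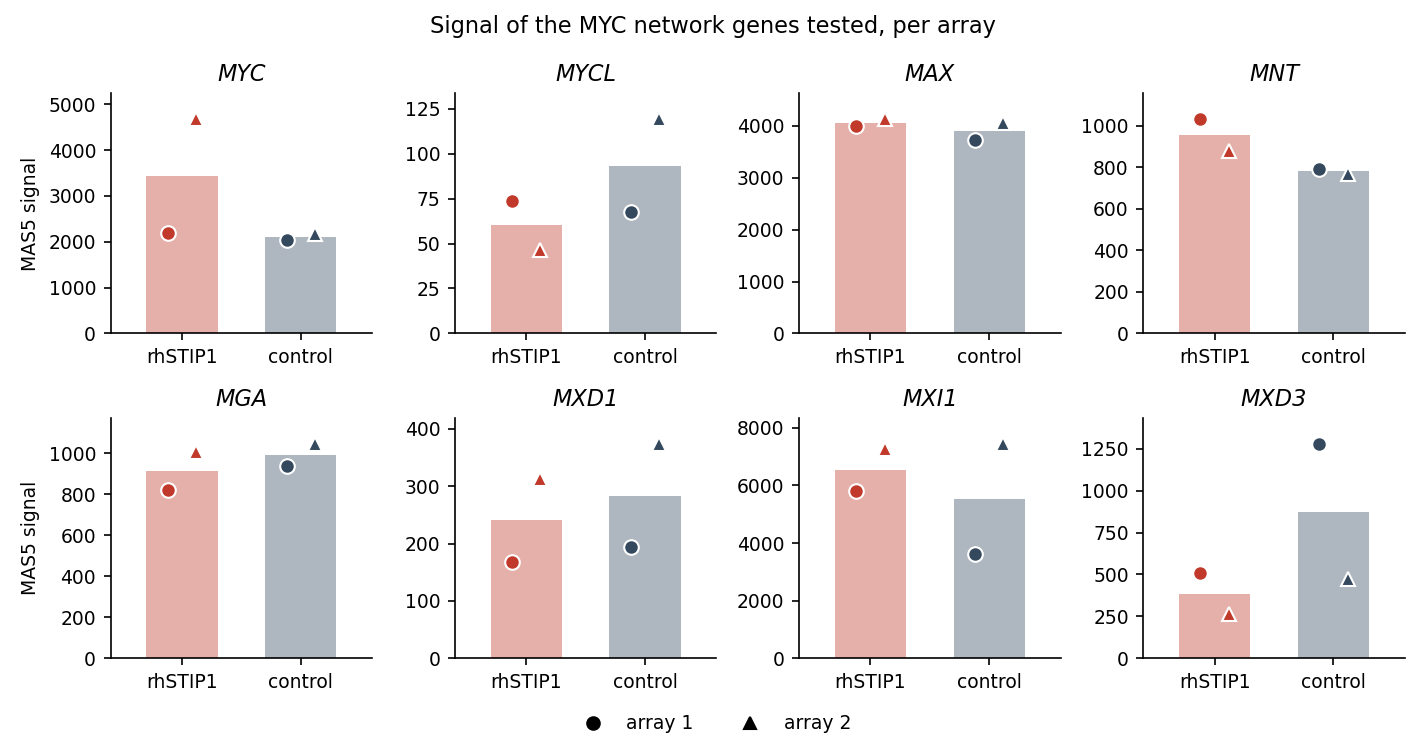
MAS5 signal (vertical axis, linear, from 0) of the 8 member genes tested, with rhSTIP1 left of control in each panel. Bars are group means of 2 arrays, circles are array 1 and triangles array 2. In the MYC panel rhSTIP1 array 2, at 4675, stands above the other 3 arrays, which lie between 2048 and 2183, and in the MXD3 panel control array 1, at 1279, stands above the other 3.

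Of the MYC genes, MYC itself was the only member separated at least 1.5-fold, and the separation came from 1 array. MYC, the broadly expressed member of the family, had signals of 2183 and 4675 on the rhSTIP1 arrays, against 2048 and 2173 on the control arrays. The groups did not overlap, but rhSTIP1 array 1 lay next to the controls and rhSTIP1 array 2 alone stood above them, 1.09 over rhSTIP1 array 1 on the log2 scale. The log2 fold change was 0.60 ± 0.35 (SE), or 1.51-fold, with an unadjusted p of 0.134 (limma). Leaving out rhSTIP1 array 2 gave 0.05 and leaving out rhSTIP1 array 1 gave 1.14. The array that carried the difference was the one with the ACTB ratio of 8.795, and the part of RNA quality in it was not tested.

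MYCL, first found amplified in lung cancer, had signals of 73.4 and 46.7 on the rhSTIP1 arrays, against 67.4 and 119 on the control arrays. The groups overlapped, 2 of the 4 values lay below 69.4, and the gene reached that mean only through control array 2. The log2 fold change was −0.50 ± 0.44. A further MYCL probe set, 215491_at, was below the limit, with 5.78 and 53.4 on the rhSTIP1 arrays and 5.69 and 64.3 on the control arrays, with both array 2 values above both array 1 values.

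MYCN, the neuroblastoma member of the family, was dim throughout. Its 10 probe sets gave signals between 1.34 and 36.6 over all arrays, and 0 of 10 reached 69.4. The groups did not overlap for 5 of them, 1 higher and 4 lower with rhSTIP1, where 31.5% of all probe sets below the limit did not overlap, 14.0% higher and 17.5% lower. The higher one, 234169_at, had 31.3 and 19.0 on the rhSTIP1 arrays and 1.63 and 3.07 on the control arrays. Its probe sets thus disagreed in direction, and no detection calls were among the values used here, so a signal of this size could not be told from background.

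**Figure D2:**
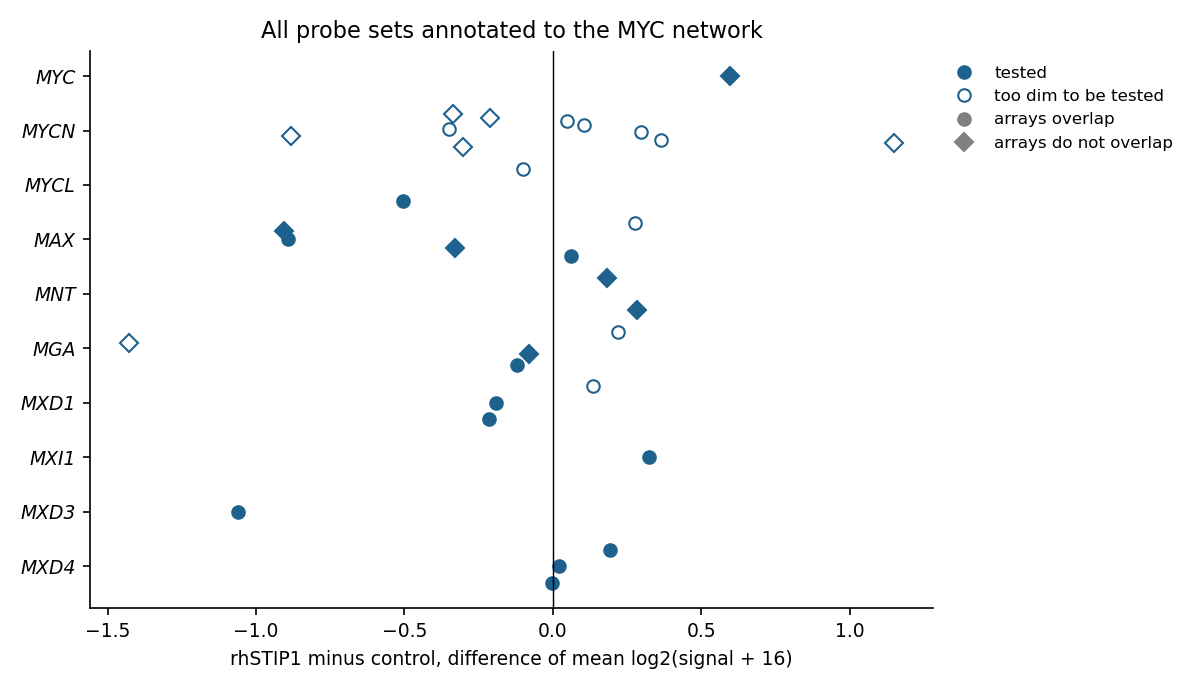
Difference between rhSTIP1 and control in mean log2(signal + 16) (horizontal axis) for all 32 probe sets, with 1 row of points per gene. Filled symbols were tested, open ones were too dim, and diamonds mark probe sets whose arrays did not overlap between groups. The tested MAX probe sets spread between −0.91 and 0.06, and the MYCN probe sets lie on both sides of 0.

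MAX, the shared partner of the other members, overlapped between the groups on the probe set that stands for the gene, and its other probe sets gave differing values. Probe set 209332_s_at had 3993 and 4127 on the rhSTIP1 arrays, against 3730 and 4059 on the control arrays, with overlap and a log2 fold change of 0.06 ± 0.21. This was the narrowest standard error among the 8 member genes.

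Probe set 209331_s_at had 788 and 982 with rhSTIP1 and 1014 and 1217 in the controls, apart by −0.33 ± 0.27. Probe set 208403_x_at had 132 and 49.2 with rhSTIP1 and 188 and 151 in the controls, also without overlap, at −0.91 ± 0.45. Probe set 210734_x_at had 353 and 122 with rhSTIP1 and 331 and 489 in the controls, with overlap, at −0.89 ± 0.47. For both of the last probe sets rhSTIP1 array 2 was the lowest of the 4 arrays, and their suffix marks probes that may also match other transcripts. Without that array their differences were −0.31 and −0.18. The ACTB ratio was highest on the same array, and its part in these values was not tested. The fifth MAX probe set, 214108_at, was just below the limit, at 78.1 and 73.8 with rhSTIP1 and 45.9 and 76.9 in the controls. The direction for MAX as a gene therefore depended on the probe set: with the mean of all 5 the log2 fold change was −0.36.

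Among the repressive partners, MNT had no overlap between the groups on the probe set that stands for the gene, 204206_at. MNT, the broadly expressed antagonist of MYC, had signals of 1032 and 880 on the rhSTIP1 arrays, against 794 and 767 on the control arrays. Both rhSTIP1 arrays lay above both controls, by a log2 fold change of 0.28 ± 0.24 or 1.22-fold, which is about the size of its moderated standard error. A dimmer MNT probe set, 236749_at, had 78.7 and 74.7 with rhSTIP1 and 73.5 and 58.6 in the controls, at 0.18 ± 0.39. It reached the limit of 69.4 only through the rhSTIP1 arrays, with group means of 76.7 and 66.0, so its lack of overlap adds nothing to the result. Leaving out rhSTIP1 array 1 gave MNT a log2 fold change of 0.17 and leaving out rhSTIP1 array 2 gave 0.40, the lowest and highest of the 4 such fits, so it stayed above 0 in each.

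MXD3 had the largest difference of the 8 member genes. Its signals were 506 and 262 on the rhSTIP1 arrays, against 1279 and 472 on the control arrays. The order of the values put control array 1 far above the other 3, and rhSTIP1 array 1 above control array 2, so the groups overlapped. On the log2 scale the arrays of a group differed by −0.91 with rhSTIP1 and by −1.41 in the controls (array 2 minus array 1). The log2 fold change was −1.06 ± 0.49, or 2.09-fold lower, with an unadjusted p of 0.0647. Leaving out control array 1 gave −0.36 and leaving out control array 2 gave −1.77, so its size depended on which control was kept. Between arrays of the same number the difference was −1.31 for array 1 and −0.81 for array 2. The labels do not say that a number marks a shared culture or day.

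MXD1 and MXI1 showed differences between the arrays of a group larger than those between the groups. MXD1, a repressor induced in differentiating cells, had 168 and 312 on the rhSTIP1 arrays, against 193 and 374 on the control arrays, with a log2 fold change of −0.22 ± 0.41. Array 2 was above array 1 by 0.83 with rhSTIP1 and by 0.90 in the controls. The direction turned with the arrays used, to 0.20 without rhSTIP1 array 1 and 0.23 without control array 2.

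A further MXD1 probe set, 228846_at, had 203 and 221 with rhSTIP1 and 144 and 408 in the controls, at −0.19 ± 0.45, and 206877_at was too dim, at 6.37 and 2.42 with rhSTIP1 and 1.23 and 3.85 in the controls. MXI1, also known as MXD2, had 5795 and 7284 on the rhSTIP1 arrays, against 3619 and 7443 on the control arrays, with overlap and a log2 fold change of 0.32 ± 0.34. Its controls differed by 1.04, and without control array 1 the log2 fold change was −0.20. Control array 1 was thus the array with the highest MXD3 and the lowest MXI1 signal, while for MXD1 the lowest was rhSTIP1 array 1 on 226275_at and control array 1 on 228846_at.

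The 3 probe sets annotated to both MXD4 and MIR4800 all overlapped between the groups. Probe set 212347_x_at had 969 and 648 with rhSTIP1 and 806 and 784 in the controls, a difference of −0.004 ± 0.29 (0.05 with median centring and 0.02 with quantile normalization). Probe set 212346_s_at had 401 and 469 with rhSTIP1 and 398 and 459 in the controls, at 0.02 ± 0.27. Probe set 210778_s_at had 125 and 140 with rhSTIP1 and 88.2 and 145 in the controls, at 0.19 ± 0.36. Each changed direction in at least 1 of the 4 fits that left out an array.

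MGA had signals of 821 and 1004 on the rhSTIP1 arrays, against 936 and 1045 on the control arrays, with overlap. The log2 fold change was −0.12 ± 0.24, and it became 0.02 without rhSTIP1 array 1. With the mean of its 4 probe sets, of which only 2 were tested, it was −0.35. The untested 230848_s_at alone was at −1.43. Probe set 235409_at had 214 and 215 with rhSTIP1 and 224 and 231 in the controls. Those groups did not overlap, but they were apart by only −0.08 ± 0.28. A dim probe set, 230848_s_at, had 5.79 and 5.66 with rhSTIP1 and 44.6 and 40.5 in the controls. The pairs were close within each group, yet all 4 values lay below the limit for testing, and the other MGA probe sets did not share this size of difference. The fourth, 1564640_at, had 10.6 and 39.2 with rhSTIP1 and 13.6 and 20.6 in the controls.

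Counted over probe sets, 6 of the 17 tested had groups that did not overlap, 3 higher (MYC and both of MNT, of which 236749_at was tested only through its rhSTIP1 arrays) and 3 lower (2 of MAX and 1 of MGA), against 28.2% of the 27307 probe sets tested, 12.8% higher and 15.4% lower. At least 1.5-fold apart were 2 of the 17, MYC higher and the MAX probe set 208403_x_at lower, against 6.42% of all, 2.07% higher and 4.35% lower. By limma with adjustment over all probe sets 0 of the 17 passed, as did 0% of all, and at an unadjusted p under 0.05 there were 0 of 17, against 3.22%. Among the 15 dim probe sets 6 did not overlap, 1 higher and 5 lower, against 31.5% of the 27306 probe sets below the limit, 14.0% higher and 17.5% lower. Counts over probe sets of the same gene are not independent of each other.

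**Figure D3:**
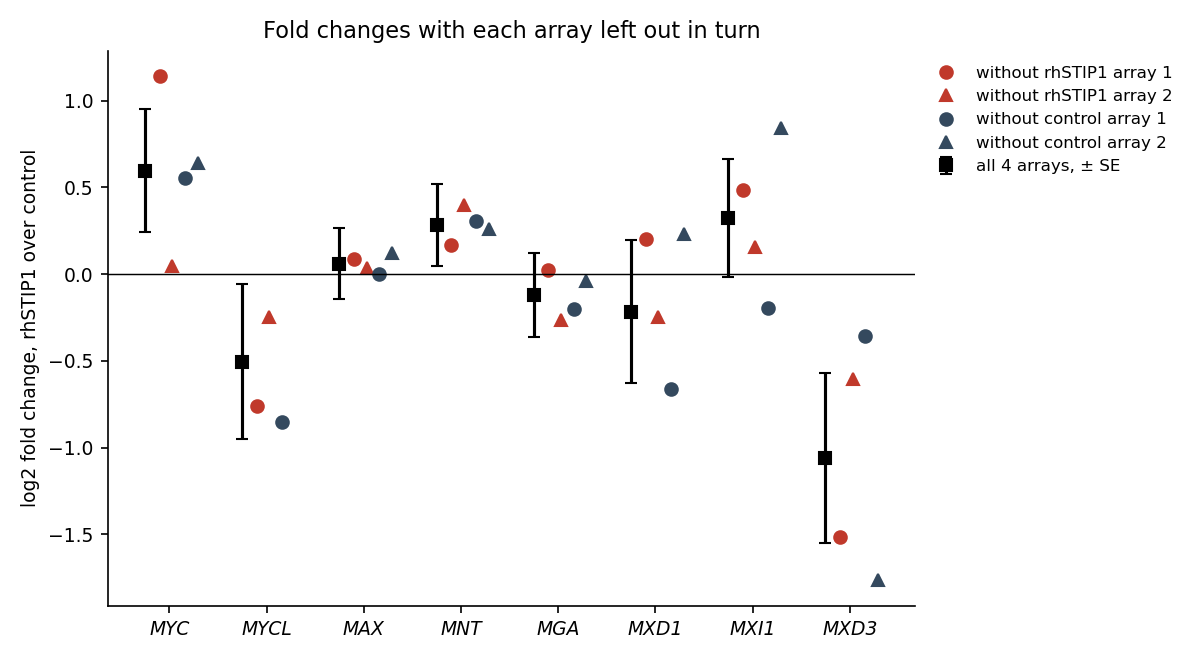
Log2 fold change of rhSTIP1 over control (vertical axis) for the 8 member genes. Black squares use all 4 arrays and carry standard errors, and the other symbols leave out 1 array each. MYC is near 0 without rhSTIP1 array 2 (0.05), MXD3 stays below 0 between −1.77 and −0.36, and MXD1, MXI1 and MGA have points on both sides of 0.

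For MYC and for MXD3, the other member with the smallest unadjusted p, the 3 genes of closest profile were taken by the root mean square distance of log2(signal + 16), centred on each gene's mean, over the 4 arrays. MYC was closest to SLC27A2, a fatty acid transporter and acyl-CoA synthetase, at a distance of 0.06, and then to BAALC and DOK7, an adaptor of the muscle receptor MuSK. BAALC had 63.4 and 174 on the rhSTIP1 arrays, against 68.0 and 72.8 on the control arrays. It reached the limit for testing only through rhSTIP1 array 2, the array on which MYC was high, so its closeness adds nothing. DOK7 had 960 and 2164 on the rhSTIP1 arrays, against 854 and 866 on the control arrays, the same single high array as MYC. MXD3 was closest to KNL1, a kinetochore scaffold, at 0.08, then to APOBEC3B, a cytidine deaminase, and NEK2, a mitotic kinase. KNL1 had 1739 and 935 on the rhSTIP1 arrays, against 4864 and 1815 on the control arrays, and NEK2 had 697 and 407, against 2065 and 691. With 4 arrays such closeness is a description only, and 8 genes lay within 0.1 of MYC and 5 within 0.1 of MXD3.

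**Figure D4:**
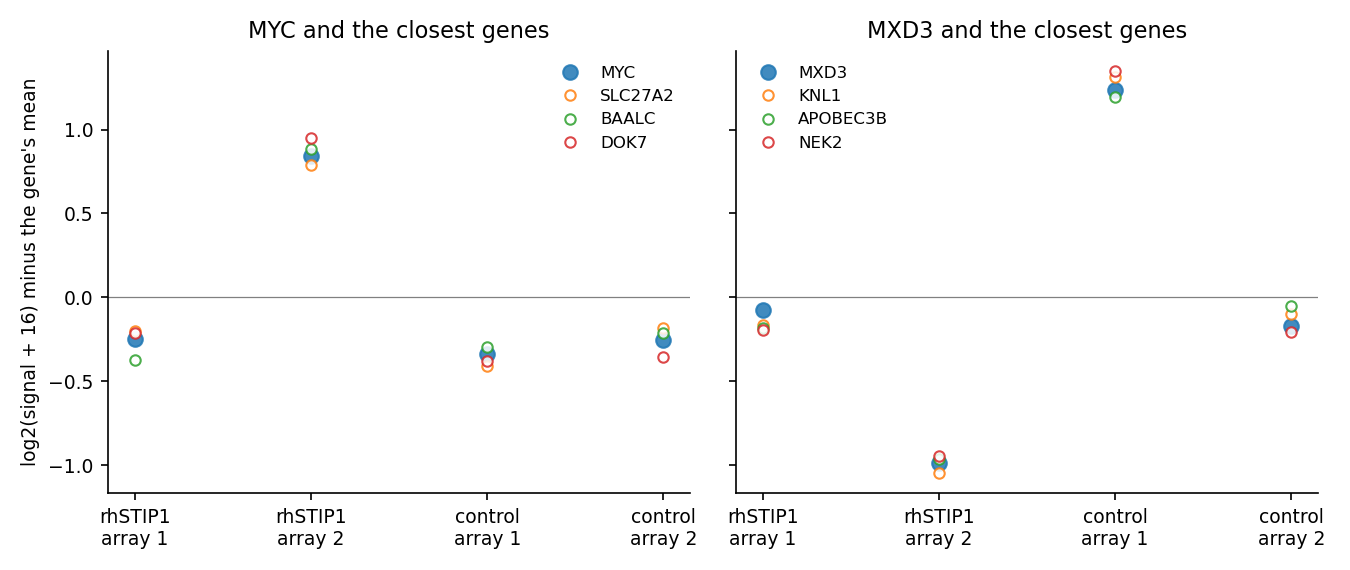
Log2(signal + 16) minus the gene's mean over the arrays (vertical axis) on each of the 4 arrays, for MYC (left panel) and MXD3 (right panel), filled, each with its 3 closest genes, open. In the left panel only rhSTIP1 array 2 lies above 0, and in the right panel control array 1 is high, rhSTIP1 array 2 is low and the other 2 are near 0.

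Genes that MYC is known to activate, where tested, were spread evenly around the median of all genes. Of 40 tested from both lists, 21 had a log2 fold change above 0 and 19 below, the median was 0.02, against 0.02 over all genes tested, and 0 had an unadjusted p under 0.05 or an adjusted p under 0.05 (limma). Groups did not overlap for 6 higher and 4 lower genes of the 40, against 14.0% and 14.9% of all genes, and 0 were at least 1.5-fold apart, against 5.69% of all. Of 26 ribosome biogenesis genes listed, only 19 had a probe set with 1 symbol, and these 19 were tested. They had a median of −0.05, which became 0.14 without rhSTIP1 array 1 and 0.004 with median centring. BYSL, needed for the small ribosomal subunit, had 642 and 938 on the rhSTIP1 arrays, against 1196 and 1084 on the control arrays, at −0.54 ± 0.27. MRTO4 (0.24 ± 0.23), NPM1 (0.13 ± 0.14) and NOLC1 (0.23 ± 0.27) were above 0, with NOLC1 at −0.0004 without rhSTIP1 array 2.

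The 21 metabolic and growth genes tested, of 25 listed, had a median of 0.02. ODC1, the first enzyme of polyamine synthesis and a classic MYC target, had 7230 and 6297 on the rhSTIP1 arrays, against 4397 and 5567 on the control arrays, without overlap, at 0.45 ± 0.22. It was higher on rhSTIP1 array 1 than on array 2, the reverse of MYC. AMD1, which acts in the same pathway, had 1505 and 3060 with rhSTIP1 and 1677 and 1643 in the controls, at 0.37 ± 0.34, and at −0.14 without rhSTIP1 array 2. The hexokinase HK2 had −0.37 ± 0.25 and the purine synthesis enzyme GART −0.31 ± 0.24.

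Genes that MYC is known to repress split in direction. Of 7 tested, 4 were above 0 and 3 below, with a median of 0.01. GADD45A, a growth arrest and DNA damage gene, had 6430 and 7502 on the rhSTIP1 arrays, against 10939 and 12397 on the control arrays, a log2 fold change of −0.74 ± 0.19 (unadjusted p = 0.00514 and adjusted p = 0.702, limma). CDKN1B, the CDK inhibitor p27, had 2797 and 1498 with rhSTIP1 and 4593 and 3071 in the controls, at −0.87 ± 0.35, and at −0.42 without rhSTIP1 array 2. The CDK inhibitor CDKN1A was at 0.48 ± 0.26. NDRG1 was at 0.64 ± 0.39, but at 0.12 without control array 1 and 1.16 without control array 2. The list's median moved to 0.39 without control array 2 and to −0.20 with rhSTIP1 array 2 left out.

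MLX, a partner of MondoA (MLXIP) in a parallel branch of the network, had 856 and 1109 on the rhSTIP1 arrays, against 1374 and 1290 on the control arrays, at −0.44 ± 0.25, and at −0.065 with the mean of its probe sets. MLXIP was at 0.07 ± 0.24 (−0.08 without rhSTIP1 array 1). TXNIP, an inhibitor of thioredoxin and of glucose uptake and the best known target of MondoA, had 13253 and 13372 on the rhSTIP1 arrays, against 19674 and 23156 on the control arrays. The rhSTIP1 arrays were close to each other and both under either control, with a log2 fold change of −0.68 ± 0.17, or 1.603-fold lower (unadjusted p = 0.00382, adjusted p = 0.702, limma). The difference lay between −0.80 and −0.56 with each array left out, and was −1.11 with the mean of the TXNIP probe sets. ARRDC4, a further MondoA target, had 1385 and 1626 with rhSTIP1 and 1173 and 2672 in the controls, with overlap, at −0.24 ± 0.38, and at 0.35 without control array 2. The 4 genes tested had a median of −0.34.

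Subunits of the complexes that the repressive members use stayed near 0 as groups. The 12 tested SIN3 corepressor genes had a median of −0.06, 5 above 0 and 7 below. ING1, a histone-binding subunit, had 869 and 1189 on the rhSTIP1 arrays, against 1898 and 1556 on the control arrays, at −0.75 ± 0.26 (unadjusted p = 0.0232, limma). ARID4B (−0.40 ± 0.24), SAP30 (−0.53 ± 0.37) and ING2 (−0.30 ± 0.26) were below 0. Without control array 1 SAP30 was at −0.097 and ING2 at −0.090. The 10 tested genes of the PRC1.6 complex had a median of 0.05, 7 above 0 and 3 below. E2F6, a repressive E2F that binds with MGA, had 965 and 1114 with rhSTIP1 and 621 and 779 in the controls, without overlap, at 0.56 ± 0.25. YAF2 was at −0.31 ± 0.24, RING1 at 0.24 ± 0.22 and CBX3 at 0.24 ± 0.27, the last at −0.06 without control array 2 and at −0.004 without rhSTIP1 array 1. The 16 tested coactivators and cofactors of MYC had a median of −0.04, 4 above 0 and 12 below, led by CCNT1 (−0.33 ± 0.21), ZBTB17 (−0.37 ± 0.29, and −0.023 without rhSTIP1 array 1), KAT2A (0.20 ± 0.24) and KAT5 (−0.18 ± 0.23).

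Among the 9 lists, regulators of the MYC protein held the largest differences when each gene was taken as its brightest probe set. Of 17 tested, 8 were above 0 and 9 below, with a median of −0.04, and 2 had an unadjusted p under 0.05, both lower, against 2.64% of all genes lower. AURKA, a mitotic kinase that also protects MYCN from degradation, had 1262 and 656 on the rhSTIP1 arrays, against 4371 and 1723 on the control arrays, at −1.58 ± 0.47 (unadjusted p = 0.0114). CIP2A, an inhibitor of the PP2A phosphatase that acts on MYC, had 284 and 269 with rhSTIP1 and 921 and 463 in the controls, at −1.19 ± 0.35 (unadjusted p = 0.00966). Without control array 1, the array on which MXD3 was also highest, the CIP2A difference was −0.71. The AURKA fit without that array gave −0.70, but on another AURKA probe set, which was then the brightest. That fit therefore does not show how far the −1.58 depended on that array. On the probe set that gave −1.58, control array 1 was the highest by far, at 4371. Control array 2, at 1723, was still above both rhSTIP1 arrays, at 1262 and 656. The ubiquitin ligase subunit FBXO32 was at 0.60 ± 0.41 (0.11 without rhSTIP1 array 1) and the deubiquitinase USP37 at −0.36 ± 0.26. The 16 tested regulators of MYC transcription and mRNA had a median of −0.09, 6 above 0 and 10 below, and 0 had an unadjusted p under 0.05. RBL1, the pocket protein p107, had 218 and 401 with rhSTIP1 and 484 and 460 in the controls, at −0.64 ± 0.33. It was at −0.22 without rhSTIP1 array 1, and also at −0.22 with the mean of its probe sets. RBL1 was followed by CTCF (−0.33 ± 0.25), FUBP1 (−0.21 ± 0.23) and IGF2BP3 (−0.16 ± 0.23).

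**Figure D5:**
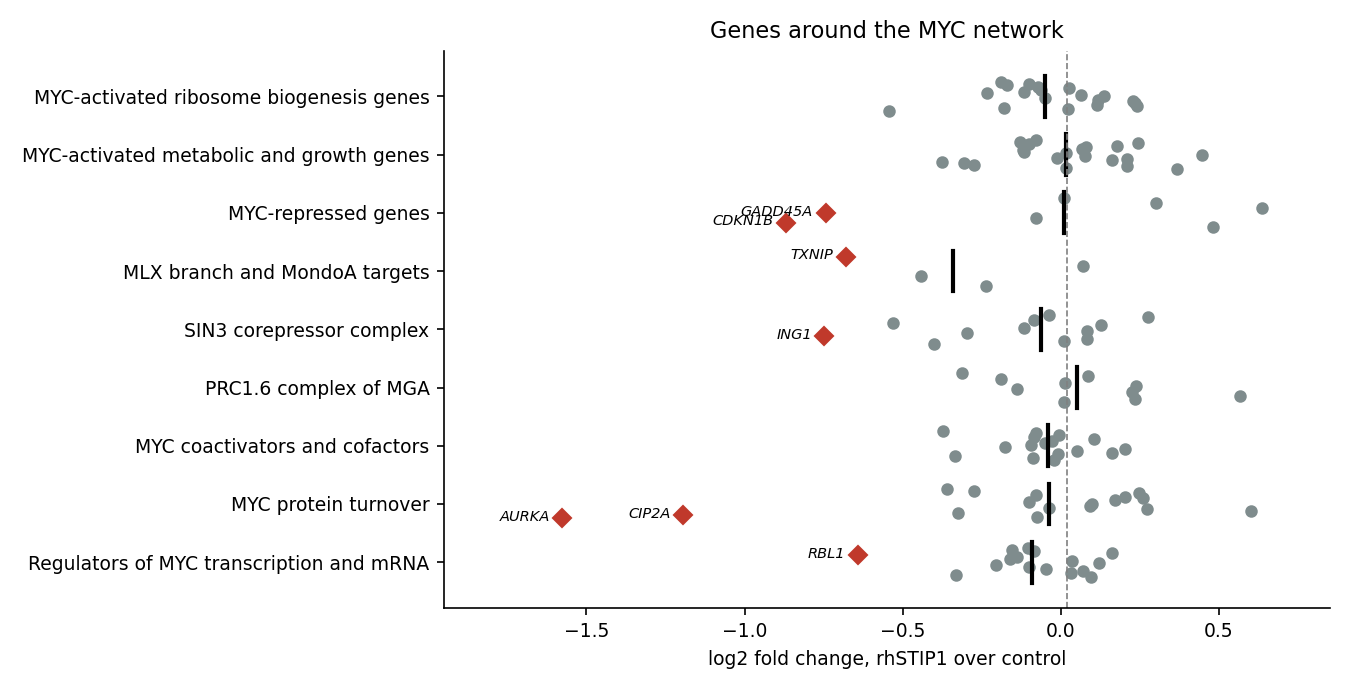
Log2 fold change of rhSTIP1 over control (horizontal axis) for the tested genes of 9 lists around the network, 1 point per gene. Black bars are list medians, the dashed line is the median of all genes tested (0.02), and red diamonds with names are genes whose groups did not overlap and were at least 1.5-fold apart. All 7 named genes lie below 0, and the 9 medians lie between −0.34 and 0.05.

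Over the 122 genes of these lists that were tested, 14 were higher and 20 lower without overlap, against 14.0% and 14.9% of all genes. Of the 122, 7 were at least 1.5-fold apart, all lower, against 5.69% of all genes in either direction and 3.79% lower. By limma 6 had an unadjusted p under 0.05, against 3.68% of all genes, and 0 had an adjusted p under 0.05.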

How the data were processed

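The values are the deposited intensities of an Affymetrix expression array, MAS5 probe set signals on a linear scale. Per the submitters' processing notes, the authors used Affymetrix Expression Console 1.1. Each array had been scaled to a trimmed mean of about 500.1 (2% from each end). Genome build and detection calls were not given in the sources used here. MAS5 treats each array alone, and its dim signals scatter widely, which affects MYCN and MYCL most.

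Probe sets were named from the platform annotation. Of 54613 probe sets other than controls, 41091 had 1 gene symbol, 1801 several and 11721 none. In the gene table of GRCh38.p14, 41037 of the first were found by identifier, with 0 symbols changed. All 10 members matched the annotation, 9 through probe sets with 1 symbol. Promoters were found in the RefSeq table for 9 members, and MYC is named only. Each of 19775 genes was its probe set with 1 symbol and highest mean signal, and 12296 were tested.

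Groups were compared with limma 3.58.1 in R 4.3.3 (lmFit, and eBayes with a trend over intensity), two-sided, on log2(signal + 16), once over genes and once over 27307 probe sets, with Benjamini-Hochberg adjustment over each. Fold changes on this scale understate changes of dim genes. Values after ± are moderated standard errors from limma. Residual degrees of freedom were 2 and prior ones 5.56. These errors therefore rest more on the trend over all genes than on the arrays of the gene itself. The steps were tested on simulated data. The number of arrays limits the precision.

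The members and the 9 gene lists (148 symbols, 132 on the array with 1 symbol, 122 tested) were chosen with earlier results of these data known. Named were all members, up to 4 genes of each list with the smallest unadjusted p, and the 3 closest profiles of MYC and of the other member with the smallest p. Alternatives covered the pseudocount, filter, scaling, eBayes settings, probe set choice, replicate number as a block and leaving out each array. In fits that left out an array, a gene's brightest probe set was chosen again from the arrays kept.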

Additional observations from a re-analysis of the deposited data

How the results depend on the processing

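Over all genes tested, calls at an adjusted p under 0.05 (limma) numbered 0. They numbered 1 where the filter was at the 70th percentile, 2 with robust eBayes and between 0 and 3 with 1 array left out. Over all probe sets they numbered 0, and between 1 and 8 with 1 array left out. With the replicate number as a block, 247 of all 12296 genes tested and 261 of all 27307 probe sets tested were called. The labels do not say that a number marks a shared culture or day. The correlation of the deviations of same-numbered arrays was 0.362 over genes, which with only 2 pairs is a hint from the data and not the design. That fit had 1 residual degree of freedom, and its prior degrees of freedom rose to 19. Of the 8 member genes, MXD3 passed with the replicate block (adjusted p = 0.0171), though its probe set missed over all probe sets (adjusted p = 0.051), and the other 7 did not pass. Of the genes named from the lists for their small unadjusted p, GADD45A, CDKN1B, TXNIP, CIP2A and AURKA also passed there. So did KNL1, APOBEC3B and NEK2, which were chosen from these same arrays for profiles close to that of MXD3. Their calls are therefore no separate support for MXD3.

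Genes separated at least 1.5-fold numbered 700 (234 higher, 466 lower), 2087 unfiltered, 424 with the filter at the 70th percentile, and 1067 to 1993 with 1 array left out, when a gene has only 3 values to separate. With median centring 326 were higher and 351 lower. Members separated numbered 1 in every setting that kept all arrays, and 0 to 3 with 1 array left out: none without rhSTIP1 array 2, MXD1 and MYCL without control array 1, and MXD3 and MYC with MYCL or MXI1 in the others.

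Settings that kept all arrays turned the direction of the member gene MAX (−0.36 with the mean of a gene's probe sets) and of the MXD4 probe set 212347_x_at (0.05 with median centring, 0.024 with quantile normalization). List medians near 0 also changed sign. With median centring these were ribosome biogenesis (0.0043), coactivators (0.015) and protein turnover (0.017), and with quantile normalization metabolic genes (−0.037) and protein turnover (0.0013). With the mean of a gene's probe sets they were the MYC-repressed genes (−0.080), SIN3 (0.011) and PRC1.6 (−0.014), and with either other filter the MYC-repressed genes (−0.035). With 1 array left out 4 medians crossed 0: ribosome biogenesis (−0.017 to 0.14), metabolic genes (−0.026 to 0.093), MYC-repressed genes (−0.20 to 0.39) and protein turnover (−0.097 to 0.096). With the mean of a gene's probe sets NOLC1 was −0.075, HK2 0.011, MLXIP −0.11, ING2 0.025 and CBX3 −0.036. With 1 array left out the ranges crossed 0 for MXD1 and its probe set 226275_at (−0.66 to 0.23), 228846_at (−0.90 to 0.51), MXI1 and its probe set 202364_at (−0.20 to 0.84), MGA and its probe set 212945_s_at (−0.26 to 0.021), 212347_x_at (−0.29 to 0.28), 212346_s_at (−0.090 to 0.13), 210778_s_at (−0.12 to 0.51), NOLC1 (−0.00040 to 0.46), AMD1 (−0.14 to 0.88), ARRDC4 (−0.83 to 0.35), MLXIP (−0.084 to 0.22) and CBX3 (−0.056 to 0.53). The cause was not tested. Alternatives for the lists and their genes were added after seeing the data. Fits without 1 array take the spread of the array left alone in its group from the other group. MYCL and MXD1 fell under the limit with the filter at the 70th percentile and MYCL without control array 2, so they have no value there, as do other probe sets or genes that fell under it.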
